A study of Mus musculus with 8 samples.

Results

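The small leucine-rich proteoglycans are secreted matrix proteins built on leucine-rich repeats, and 9 of their genes were followed here in the left ventricle of ageing mice: Dcn, Bgn, Lum, Fmod, Ogn, Prelp, Aspn, Omd and Podn. Every probe whose gene symbol in the deposited non-normalized table is one of these names was taken, which gave 13 of 25697 probes. RNA came from the left ventricle with the septum of 8 mice aged 12 months on a Swiss Agouti background, each hybridised to an Illumina bead array. The groups were 4 heterozygotes for a knock-in deletion, in a strain described in the study's title as a model of raised late sodium current with fibrosis on ageing, and 4 wild-type littermates. The knock-in is carried in the germ line, and the labels name no transgene, drug or operation in either group.

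Decorin and its relatives coat collagen fibrils and set how thick and how regularly spaced these fibrils become. Most carry chondroitin, dermatan or keratan sulfate chains, and several bind TGF-beta or engage cell surface receptors, so that they act as signals as well as scaffold. In the heart they are made mainly by fibroblasts and by cells of the vessel walls and valves, and they are widely used as markers of fibrosis. The family is divided by sequence into classes, with Dcn, Bgn and Aspn in class I, Lum, Fmod, Prelp and Omd in class II, Ogn in class III and Podn in class V.

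Several members are neighbours on the chromosome. In RefSeq's gene order of assembly GRCm38.p6, Dcn lies next to Lum on chromosome 10, Prelp next to Fmod on chromosome 1, and Aspn, Omd and Ogn follow each other on chromosome 13, while Bgn on chromosome X and Podn on chromosome 4 have no member beside them. Of these 4 adjacent pairs, 1 (Dcn and Lum) had both genes measured. RefSeq's promoter table held 7 of the 9 members. The 250 bases before the annotated start are shown for Bgn, Prelp and Ogn, chosen after their values were seen because their levels ran most alike across mice, as the regions in which shared letters can be looked for. They are credited to RefSeq, GRCm38.p6, and cover chrX:73483351-73483600 on the plus strand for Bgn, chr1:133921402-133921651 on the minus strand for Prelp and chr13:49607765-49608014 on the plus strand for Ogn, each written 5′ to 3′. Capitals mark matches, on either strand, to 4 motifs: TATAAA (the TATA box), CCAAT (the CCAAT box), GGGCGG (the GC box) and TGANTCA (the AP-1 site).
Bgn: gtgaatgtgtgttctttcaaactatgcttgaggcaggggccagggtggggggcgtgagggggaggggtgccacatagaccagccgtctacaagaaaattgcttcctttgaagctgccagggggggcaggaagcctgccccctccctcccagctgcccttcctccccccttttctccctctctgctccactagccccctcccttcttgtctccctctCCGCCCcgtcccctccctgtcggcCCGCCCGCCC
Prelp: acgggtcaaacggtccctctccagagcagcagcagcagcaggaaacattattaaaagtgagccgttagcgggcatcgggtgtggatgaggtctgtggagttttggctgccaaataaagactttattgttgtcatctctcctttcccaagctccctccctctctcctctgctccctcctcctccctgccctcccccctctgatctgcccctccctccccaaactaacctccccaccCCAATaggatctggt
Ogn: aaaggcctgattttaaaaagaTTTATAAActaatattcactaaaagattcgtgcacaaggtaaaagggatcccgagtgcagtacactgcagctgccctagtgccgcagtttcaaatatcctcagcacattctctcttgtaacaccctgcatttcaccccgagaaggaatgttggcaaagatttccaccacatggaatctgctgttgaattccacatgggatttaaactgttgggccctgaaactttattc
These windows shared none of the 4 motifs. Bgn held 3 GC boxes, at 34, 10 and 6 bases before the start, the last pair overlapping by 2 bases. Prelp held 1 CCAAT box at 15 bases before the start. Ogn held 2 TATAAA matches on opposite strands, which overlap by 4 bases, at 229 and 227 bases before the start. Over all 32851 promoter windows of this length, 32.74% held a GC box, 33.85% a CCAAT box, 12.37% a TATA box and 6.75% an AP-1 site. The GC content was 64.4% for Bgn, 55.6% for Prelp and 42% for Ogn, against a median of 52.4% over all windows.

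Between 10094 and 11545 probes were detected per array, a probe counting as detected at a detection p under 0.01. Heterozygote 3 stood apart, its array correlating with the rest at a mean r of 0.950, where the remaining 7 had 0.971 to 0.977. The array of wild type 1 was dimmer, with a median intensity of 106 over probes detected on all 8 arrays, against 130 to 177 on the others. Of 9 cardiomyocyte markers on the array, 8 or 9 were detected in each mouse, with the lowest mean level in heterozygote 3 (11.23, against 11.38 to 11.76 in the other mice). The test took genes detected on at least 4 arrays, which were 6 of the 9 members: Dcn, Bgn, Lum, Prelp and Ogn on all 8 arrays, as 84.6% of the genes tested were, and Podn on 4. Fmod, Aspn and Omd did not enter it.

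None of the 6 measured members passed the test between the genotypes. Differences are given as heterozygote minus wild type on the scale of normalized log2 intensity, and they lay between 0.014 and 0.18, with an SE of 0.13 to 0.20. Over all 8146 genes tested with limma and Benjamini-Hochberg adjustment, 0 passed at 0.05 (0%), 0 of the 6 members among them, and the unadjusted p was under 0.05 for 339 genes (4.16%) and for 0 members. Bgn had the smallest p of the members. The genotypes did not overlap in 2.61% of genes, 1.66% with the heterozygotes higher, and overlapped in all 6 members.

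Class I holds the best studied members. Dcn encodes decorin, which binds collagen fibrils and can sequester TGF-beta. Its brighter probe gave intensities of 8278, 6783, 8876 and 8988 in heterozygotes 1 to 4, against 6222, 8643, 8561 and 7219.6 in wild types 1 to 4. The genotypes overlapped, and wild type 1 was the lowest mouse. After normalization the wild types lay between 12.93 and 12.99, while the heterozygotes spread from 12.82 to 13.25, with heterozygote 3 the highest. The difference was 0.019 (95% interval -0.27 to 0.31, adjusted p = 0.999 with limma, n = 4 each), a fold of 1.01 (0.828 to 1.24). This probe varied little across mice, with an SD of 0.12 over 8 mice against a median of 0.26 over all genes. The dimmer Dcn probe, also detected on all 8 arrays, ran from 10.61 in heterozygote 2 to 11.39 in heterozygote 3, with a difference of 0.0014 and an SD of 0.29. The 2 probes were set against each other across the mice (r = 0.668, rho = 0.595, exact permutation p = 0.0374 and 0.132, adjusted p = 0.150 and 0.529 over 4 probe pairs). Without the 2 mice farthest from the median r was 0.197. Leaving out the extreme mice narrows the range, so this drop does not show what the relation rests on.

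Bgn encodes biglycan, an X-linked relative of decorin that also acts as a ligand of Toll-like receptors once released. Its probe gave 4313, 4396, 5369 and 4619 in heterozygotes, against 2453, 5824, 3988 and 3524 in wild types. Wild types held both the highest and the lowest mouse as deposited. Normalized values were 11.93, 12.21, 12.52 and 11.96 in heterozygotes, against 11.65, 12.42, 11.89 and 11.92 in wild types. Heterozygote 3 was now the highest and wild type 1 still the lowest. The difference was 0.18 (-0.26 to 0.62, adjusted p = 0.990), a fold of 1.13 (0.837 to 1.54). Without wild type 2 it was 0.33 and without heterozygote 3 it was 0.062, and neither passed (adjusted p = 0.773 and 0.960, limma).

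Aspn encodes asporin, a class I protein that lacks the chain attachment of its relatives and binds TGF-beta. Its probe gave 5.1, 3.6, 6.1 and -3.4 in heterozygotes, against 4.6, 1.3, 2.1 and 5.8 in wild types. It was detected on 0 of 8 arrays, and its lowest detection p was 0.0614. A transcript below detection and a probe that does not respond cannot be told apart, so no level can be given in either genotype.

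**Figure D1:**
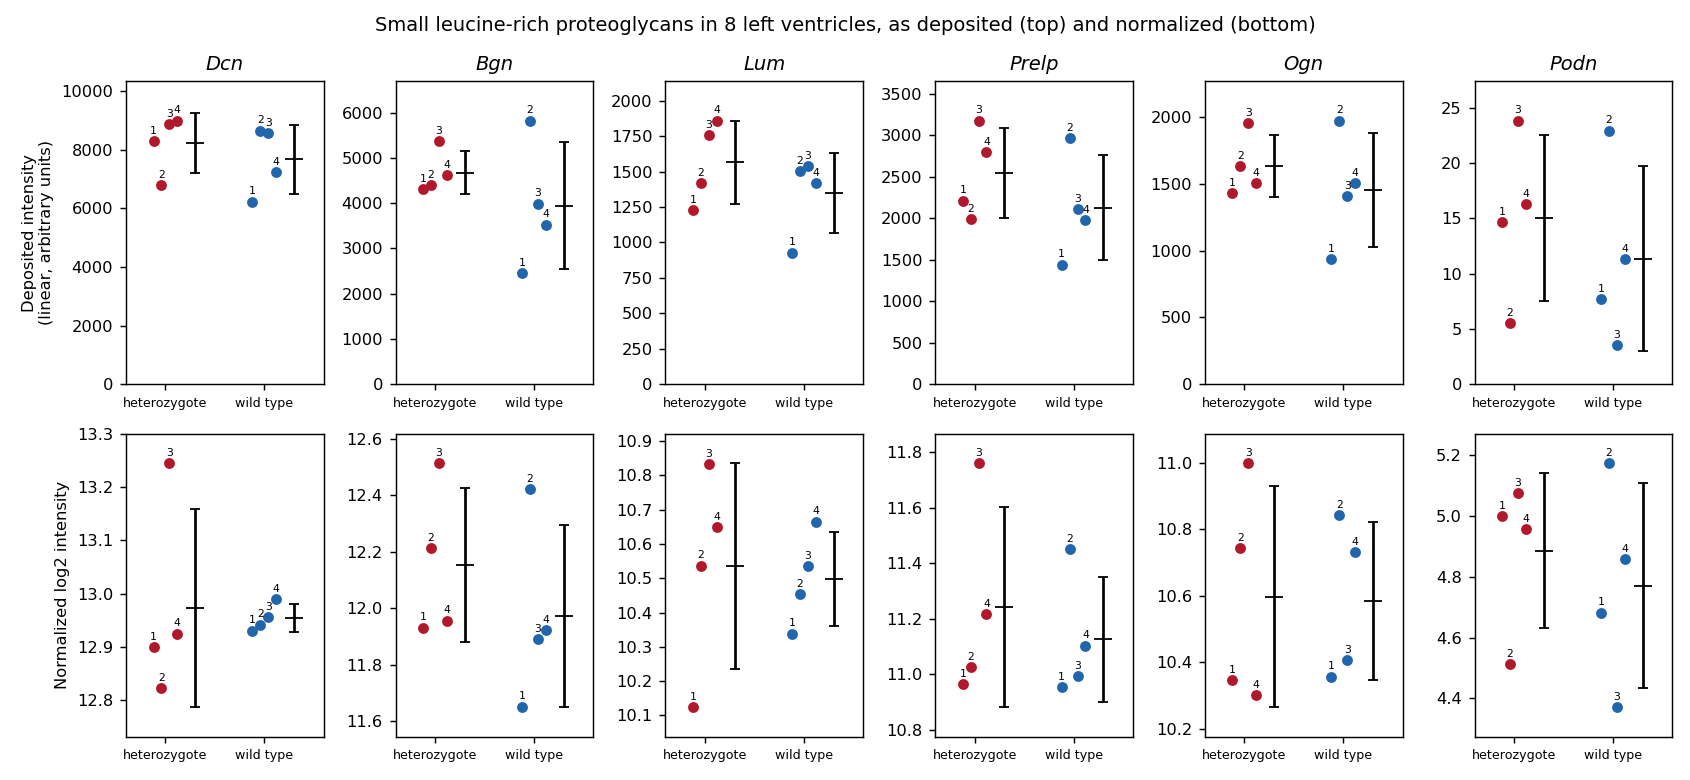
Intensity of the 6 measured members in each mouse, as deposited (top, linear, arbitrary units, from 0) and normalized (bottom, log2, axes not from 0), with heterozygotes in red on the left and wild types in blue on the right. Numbers are mouse numbers, and bars give the mean ± SD of 4 mice. The genotypes overlap in every panel, and wild type 1 is the lowest of 8 as deposited for 5 members but for 2 after normalization.

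Lum, of class II, encodes lumican, which regulates fibril diameter and carries keratan sulfate in the cornea. Intensities were 1228, 1419, 1756 and 1860.1 in heterozygotes, against 928, 1505, 1536 and 1421 in wild types. Heterozygotes 3 and 4 were the highest mice as deposited. Normalized values ran from 10.12 in heterozygote 1 to 10.83 in heterozygote 3, and the wild types lay inside that range, between 10.34 and 10.66. The difference was 0.037 (-0.34 to 0.41, adjusted p = 0.999, limma). It was 0.17 without heterozygote 1, and its sign turned without heterozygote 3 (-0.061), heterozygote 4 (-0.00075) or wild type 1 (-0.016).

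Prelp encodes a class II protein with a basic amino-terminal end that binds heparan sulfate and links basement membranes to collagen. Intensities were 2211, 1992, 3176 and 2793 in heterozygotes, against 1441, 2967, 2111 and 1974 in wild types. Heterozygote 3 and wild type 2 were the highest mice of their genotypes. The same pair led after normalization, at 11.76 and 11.45, while the other 6 mice lay between 10.96 and 11.22. The difference was 0.12 (-0.32 to 0.56, adjusted p = 0.993, limma), a fold of 1.08 (0.799 to 1.47), and it was -0.056 without heterozygote 3.

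The remaining class II genes were dim. Fmod encodes fibromodulin, which takes part in collagen cross-linking and carries keratan sulfate chains. Its brighter probe gave 6.3, 10.1, 13.3 and 8.3 in heterozygotes, against 5.0, 20.2, 4.5 and 12.7 in wild types. It was detected on 3 arrays (heterozygote 3, wild type 2 and wild type 4), just short of the 4 that the filter asks for. Its other probe lay between -5.0 and 6.7 and was detected on 0 arrays. Omd encodes osteomodulin, best known from bone. Its probe gave 3.8, 3.7, 6.4 and 21.9 in heterozygotes, against 8.3, 10.3, 7.2 and 11.4 in wild types, and was detected on 1 array, that of heterozygote 4.

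Ogn, of class III, encodes osteoglycin, also called mimecan, whose expression has been linked to left ventricular mass in rats and in humans. Its brightest probe gave 1433, 1635, 1956 and 1505 in heterozygotes, against 937, 1975, 1408 and 1505 in wild types. Heterozygote 3 and wild type 2 were again the highest of their genotypes, and the groups overlapped. Normalized values were 10.35, 10.74, 10.999 and 10.30 in heterozygotes, against 10.36, 10.84, 10.41 and 10.73 in wild types. The difference was 0.014 (-0.41 to 0.44, adjusted p = 0.999, limma). It ran from -0.12 without heterozygote 3 to 0.11 without heterozygote 4, and was also below 0 without heterozygote 2 (-0.035), wild type 1 (-0.062) or wild type 3 (-0.045). Of 3 Ogn probes, all detected on all 8 arrays, the dimmer pair differed by -0.15 and 0.16, opposite in sign. No relation among the 3 probes across mice passed, neither of the brightest with the others (r = 0.05 and 0.40, rho = 0.07 and 0.17, exact permutation p = 0.905 and 0.356 for r, adjusted p = 0.905 and 0.711 over 4 probe pairs) nor of the dimmer pair (r = 0.19, rho = 0.45, adjusted p = 0.899 and 0.535). Without the 2 mice farthest from the median, r was 0.55, 0.32 and 0.14 for the same pairs.

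Podn, of class V, encodes podocan, which restrains smooth muscle growth in mice. Its probe gave 14.6, 5.6, 23.9 and 16.3 in heterozygotes, against 7.7, 23.0, 3.5 and 11.3 in wild types. It was detected in heterozygotes 1, 3 and 4 and in wild type 2, which is the fewest arrays the filter allows, so its level lies near background in the other mice. The difference was 0.12 (-0.32 to 0.55, adjusted p = 0.993, limma), with heterozygote 3 at 5.08 and wild type 2 at 5.17 on a scale that starts at 4.10, and it was -0.018 without wild type 3.

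**Figure D2:**
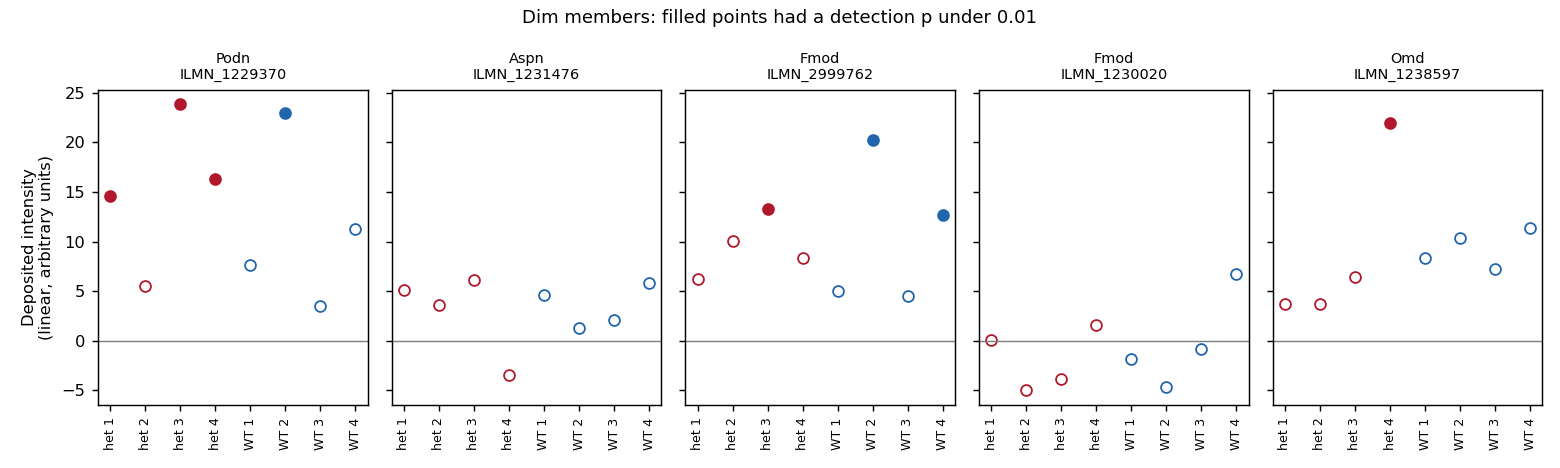
Deposited intensity of Podn and of the members that did not enter the test (linear, arbitrary units, background already subtracted) in each mouse, heterozygotes (red) left of wild types (blue). Filled points were detected, which holds for 4 Podn values, 3 values of the brighter Fmod probe, 1 of Omd and 0 of Aspn and of the other Fmod probe.

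As a group, 6 of 6 measured members had a positive difference, with a median of 0.076, where 53.1% of all genes were positive with a median of 0.014. Without heterozygote 3, 2 of the 6 were positive, Bgn at 0.062 and Podn at 0.052, the median was -0.059, and 56.4% of all genes were positive. Dcn at -0.072, Lum at -0.061, Prelp at -0.056 and Ogn at -0.12 turned negative without that mouse. The share of the 6 that was positive also fell to 66.7% without wild type 1, without wild type 3 or with array weights. It was 83.3% without heterozygote 2 or heterozygote 4. Without the detection filter 66.7% of all 9 members were positive, since Aspn at -0.023, Fmod at -0.075 and Omd at -0.089, all near background, were negative. Scaling each array by its median in place of quantiles raised the median of all genes to 0.16 and gave Bgn 0.29, Prelp 0.26, Lum 0.20, Ogn 0.18, Podn 0.16 and Dcn 0.089. Relative to that median, the differences were 0.13 for Bgn, 0.11 for Prelp, 0.048 for Lum, 0.026 for Ogn, 0.0020 for Podn and -0.067 for Dcn, which was thus below it. In bulk tissue, more cells that make a transcript and more transcript per cell cannot be told apart.

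**Figure D3:**
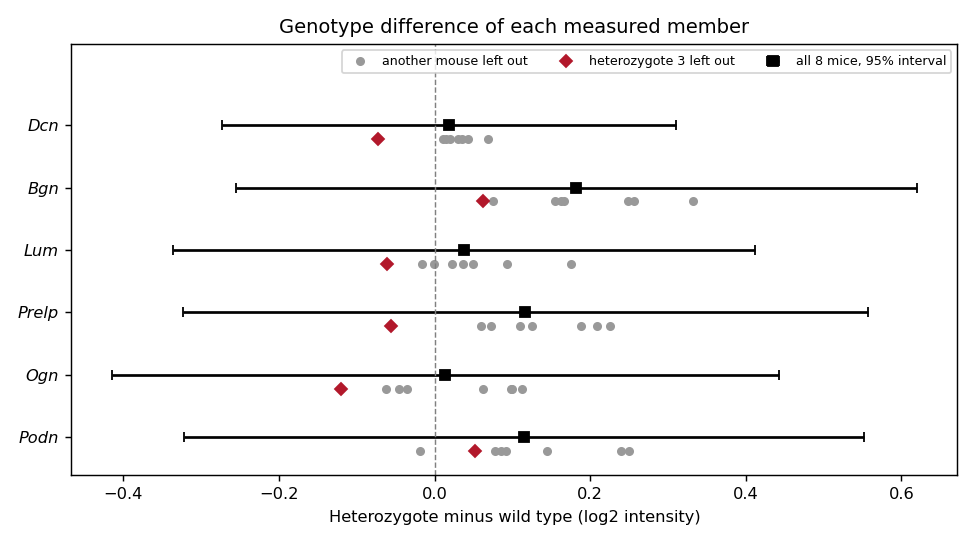
Heterozygote minus wild type difference (log2 intensity) of the 6 measured members. Squares with bars give the limma estimate and its 95% interval over 8 mice, grey circles the estimate with another mouse left out and red diamonds that without heterozygote 3. All 6 intervals span 0, and 4 of the diamonds (Dcn, Lum, Prelp and Ogn) fall below 0.

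All 15 pairs of the 6 measured members had a positive Pearson correlation over 8 mice, between 0.051 (Lum and Podn) and 0.85 (Bgn and Ogn), with a median of 0.57. Over all pairs of genes tested, the median was 0.011, 50.8% were positive and 11.2% reached 0.57 or more. These values share the 8 arrays and their normalization, so they are not independent of each other. The signs depend on the probes used: with the mean of a gene's detected probes in place of the brightest, 14 of 15 pairs were positive, Dcn and Ogn turned to -0.086 (0.548 with the brightest probes), and Lum and Ogn had 0.26 (0.57). With the undetected members included, 27 of 36 pairs of all 9 members were positive, with a median of 0.31.

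Bgn was closest to Ogn (r = 0.850, rho = 0.619, exact permutation p = 0.006 and 0.115, adjusted p = 0.0536 and 0.331 over 15 pairs) and to Prelp (r = 0.845, rho = 0.833, p = 0.00714 and 0.0154, adjusted p = 0.0536 and 0.231). Prelp was next with Dcn (r = 0.802) and with Ogn (r = 0.744), at adjusted p = 0.146 and 0.105 (exact permutation). No pair passed at 0.05, two-sided, by Pearson or Spearman, and 4 of 15 had an unadjusted p under 0.05 by Pearson. The share of all pairs of genes at such a p was not counted, so the 4 have no background beside them. The adjacent genes Dcn and Lum had r = 0.622 and rho = 0.548 (adjusted p = 0.234 and 0.366, exact permutation), with r = 0.740 without the 2 mice farthest from the median of Dcn and 0.259 without heterozygote 3.

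The median correlation fell when heterozygote 3, or both it and wild type 2, were left out, which also narrows the range. Without heterozygote 3 the median over the 15 pairs was 0.26, 12 were positive, and Dcn and Bgn turned to -0.30, while 30.4% of all pairs of genes then reached that median or more. Bgn kept r = 0.757 with Ogn and r = 0.745 with Prelp in those 7 mice. Heterozygote 3 and wild type 2 are the mice farthest from the median of Bgn, and without both r was 0.58 with Ogn and 0.29 with Prelp. With 4 mice per genotype there are too few for a value within a genotype. Taken as deviations from the genotype means, 15 of 15 pairs stayed positive with a median of 0.57, and 0 passed.

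**Figure D4:**
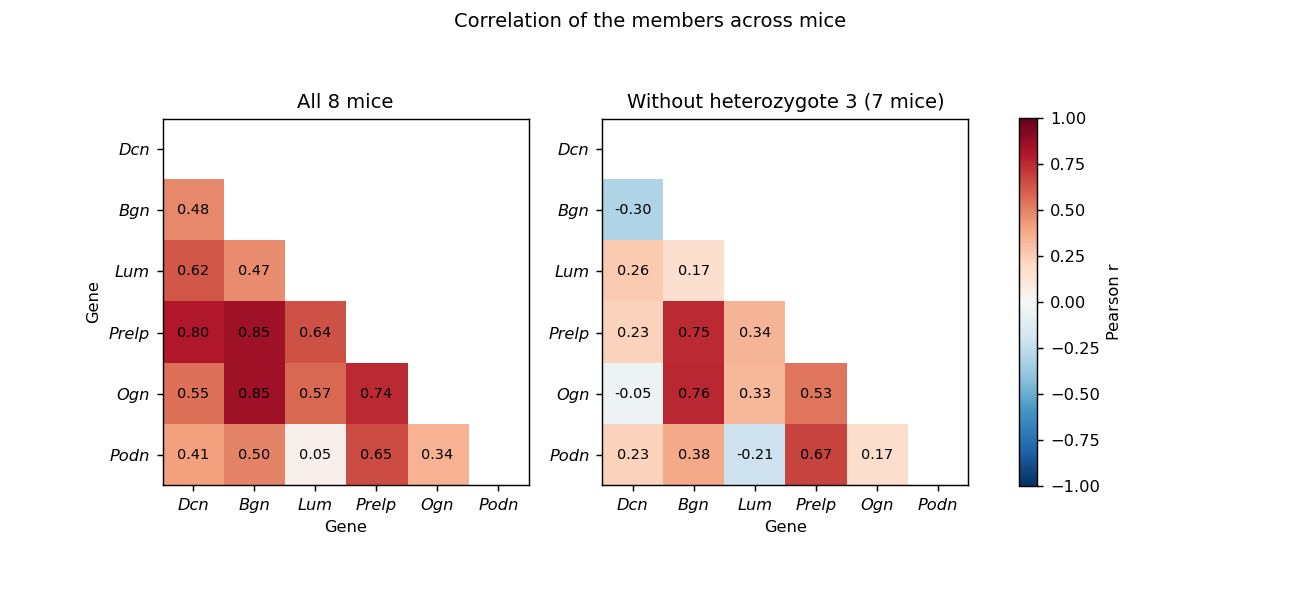
Pearson correlation between each pair of the 6 measured members, in normalized log2 intensity, over all 8 mice (left) and over 7 mice without heterozygote 3 (right), on a colour scale from -1 to 1. All 15 values are positive on the left, with Bgn against Ogn and Prelp the highest at 0.85, and 3 are negative on the right.

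The mouse that led differed with the processing. After normalization heterozygote 3 was the highest of 8 for Dcn, Bgn, Lum, Prelp and Ogn, and wild type 2 for Podn. All 6 members were above their own mean in heterozygote 3, 4 of 6 in wild type 2 and in wild type 4, and 0 of 6 in wild type 1. In the intensities as deposited, wild type 1 was the lowest for all members but Podn, and the highest values were split evenly among heterozygote 3, heterozygote 4 and wild type 2. In the authors' normalized values heterozygote 3 was again the highest for 5 members, and wild type 1 the lowest for 2.

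**Figure D5:**
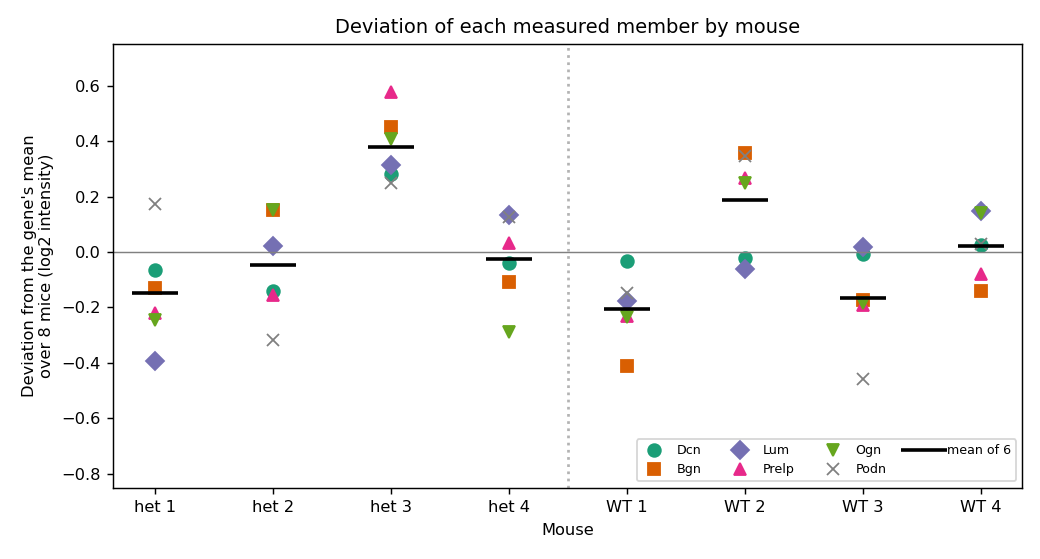
Deviation of each measured member from its own mean over 8 mice (log2 intensity), with heterozygotes (het) left of the dotted line and wild types (WT) right of it. Black bars give the mean of the 6 members. All 6 members lie above 0 in heterozygote 3 and below 0 in wild type 1.

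Markers of other tissue moved with these mice. Heterozygote 3 and wild type 2 had 10 and 9 of 11 epicardial and mesothelial markers detected, against 4 or 5 in the other 6 mice. Upk3b, a mesothelial marker, was at 9.09 in heterozygote 3 and 9.37 in wild type 2, where the others lay between 5.91 and 7.01, and Wt1 was at 8.24 and 8.03, where the others lay between 6.36 and 7.45. The mean of the 4 measured markers of that list ran from 5.99 to 7.67 in heterozygotes, against 5.85 to 7.71 in wild types, and Tbx18 was detected on 0 arrays. The mean of the smooth muscle markers, 6 of 7 measured, was also highest in these mice. It was 10.27 in heterozygote 3 and 10.72 in wild type 2, where the others lay between 9.31 and 9.78. Des, 1 of the 6, ran the other way, at 11.81 in heterozygote 3 and 12.09 in wild type 2, against 12.105 to 12.515 in the others. Fibroblast markers, 16 of 18 measured, averaged 8.35 to 8.95 in heterozygotes, against 8.09 to 8.73 in wild types, and were highest in heterozygote 3 and next in wild type 2. The airway gene Scgb1a1 was at 13.44 in heterozygote 3, 12.99 in wild type 1, 8.99 in heterozygote 4 and 8.31 in wild type 4, and not detected in the other 4. Cartilage, tendon and valve markers, 3 of 11 measured, averaged 5.46 to 5.95 in heterozygotes, against 5.46 to 5.84 in wild types. Adipocyte markers, 6 of 9 measured, averaged 6.12 to 10.53 in heterozygotes, against 7.33 to 8.68 in wild types, with heterozygote 3 the highest and heterozygote 2 the lowest. Of the 9 measured cardiomyocyte markers, 8 were lower in heterozygotes with a median of -0.18 and 0 passing, and their mean ran from 11.23 to 11.65 in heterozygotes, against 11.44 to 11.76 in wild types. Heterozygote 3, without which 4 of the 6 members turned negative, had the lowest mean of the cardiomyocyte markers and the highest of the adipocyte markers. Single cardiomyocyte markers differed. Myh7 (5.37), Tnni3 (9.36) and Pln (11.41) were lowest in heterozygote 3, while Myl2 (14.57) was highest there and in wild type 4. The part of these tissues in the levels of the members was not tested.

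The fibrillar collagens that these proteoglycans coat were set against each member. Col1a1 averaged 7.29 in heterozygotes and 7.12 in wild types, and Col3a1 7.10 and 6.95, against 12.97 and 12.95 for Dcn. Intensities of different probes do not compare amounts of transcript, since the probes of Ogn alone averaged 10.60, 5.93 and 5.91 in heterozygotes. Col1a2, Col5a2 and Col5a3 were detected on 0 arrays and could not be used. How well the probes report these collagens was not tested. Col3a1 ran closest to Prelp (r = 0.832, rho = 0.690, exact permutation p = 0.00908 and 0.0694, adjusted p = 0.109 and 0.278 over 12 relations) and Dcn (r = 0.775, rho = 0.405, adjusted p = 0.145 and 0.560). Without the 2 mice farthest from its median Col3a1 had r = 0.71 with Prelp and -0.34 with Dcn. The relation to Dcn was thus not seen in the remaining mice, over a narrower range. Col1a1 ran closest to Bgn (r = 0.652, rho = 0.690, adjusted p = 0.231 and 0.278, exact permutation), with r = 0.78 without the 2 farthest mice. None of the 12 relations passed.

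Other genes of the pathway, from lists chosen with earlier results of these data known, did not pass either. Of the enzymes that build and sulfate chondroitin and dermatan chains, 11 of 22 were measured, 5 higher and 6 lower with a median of -0.0064, and the sulfotransferases Chst12 at 0.36 and Chst3 at 0.55 and Chst7 at -0.23 had the smallest p. Of the keratan sulfate enzymes, 5 of 10 were measured, 3 higher and 2 lower, with the sulfotransferases Chst2 at 0.43 and Chst1 at 0.50 and the galactosyltransferase B4galt1 at -0.34. Chst2 was detected on 4 arrays, the fewest the filter allows, at means of 5.04 in heterozygotes and 4.61 in wild types. Chst12 and Chst3 were detected on 6 arrays, at means of 4.88 to 5.64. All 3 thus lay near background, on a scale that starts at 4.10. Of the other proteoglycans, 12 of 26 were measured, 6 higher and 6 lower, led by the syndecan Sdc3 at 0.43 (unadjusted p = 0.00611, limma), with every heterozygote above every wild type, as in 1.66% of all genes. The glypican Gpc6 was at 0.36 and the hyaluronan receptor Cd44 at 0.39. Across these 3 lists 0 genes passed in either direction. Related leucine-rich repeat genes were mostly undetected: Kera, Epyc, Optc, Nyx, Podnl1 and Tsku on 0 arrays and Ecm2 on 2, and the 1 of 9 measured, the cartilage gene Chad, was at -0.33.

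Of the fibrillar collagens and their assembly partners, 14 of 22 were measured. They were higher for 13 of 14 measured genes, with a median of 0.17, and 0 passed. Pcolce2, which enhances procollagen processing, was at 0.21, the cross-linking enzyme Lox at 0.46 and Col5a1 at 0.17. Genes listed as signalling partners of decorin and biglycan, not all of them direct binding partners, were higher for 17 of 19, with a median of 0.15 and 0 passing. Among them were the complement chain C1qc at 0.65, the receptor Egfr at 0.42 and Cd14 at 0.46. Over all genes 53.1% were higher, with a median of 0.014. Macrophage markers were higher for 9 of 9 (median 0.29) and fibroblast markers for 15 of 16 (median 0.18), again with 0 passing. C1qa, C1qb, C1qc and Cd14 belong to both the signalling partner list and the macrophage list. Col1a1 and Col3a1 belong to both the collagen and the fibroblast list, so these counts are not separate. All 4 lists were highest in heterozygote 3, and the part of that mouse in these medians was not tested.

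Genes outside the family with the most similar profile were ranked by Pearson correlation over the 8 mice, as a description. By the mean over the 6 members, the closest were Ptn (pleiotrophin, a secreted growth factor) at 0.784, Trim39 at 0.783, Arf3 and Arl8a at 0.780 each and Litaf at 0.777, and without heterozygote 3 these were 0.56 to 0.59. Of single members, Bgn ran closest to 2410002F23Rik (r = 0.983) and Pi16 (0.972), a gene of adventitial fibroblasts, and kept 0.979 and 0.962 without heterozygote 3. Prelp ran closest to Litaf (0.986) and Ddx17 (0.983), Dcn to Smarcd2 (0.984) and Hmgcs1 (0.965), Lum to Aqp7 (0.936) and Os9 (0.933), Ogn to Casp4 (0.959) and Plekhg2 (0.958), and Podn to Pf4 (0.962) and Epb41l3 (0.947). Each was picked as the highest over the genes tested, from 8 points.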

How the data were processed

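RNA was prepared with a column kit for fibrous tissue and labelled for Illumina arrays, per the labels' protocols, which call the mice biological replicates. The deposited table gives, per the file headers, an average intensity and a detection p-value for each probe, with the background already subtracted (23.0% to 27.2% of values per array lay below 0). The authors also deposited intensity values normalized between arrays by a method not given in the sources used here. They were used as an alternative.

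The background was then modelled with normexp (limma's nec, detection p-values, offset 16), and the values quantile normalized and taken to log2, which pulls differences of dim probes towards 0. The 10547 probes with a detection p under 0.01 on 4 or more of the 8 arrays were used, and the brightest stood for each of 8146 genes. Symbols followed RefSeq GRCm38.p6 (12036 of 18120 current, 5207 by synonym). Genotypes were compared with lmFit and eBayes (R 4.3.3, limma 3.58.1), two-sided, with Benjamini-Hochberg adjustment over all genes at 0.05, and checked on simulated data. Correlations used exact permutation in Python 3.11.15 with numpy 2.4.6, and figures matplotlib 3.10.9. Alternatives covered background, normalization, filter, choice of probe, weights per array, a block for mouse number, eBayes options and each mouse left out.

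The named genes are all members, up to 3 genes per list with the smallest p, Col1a1, Col3a1 and the genes most like the members. Upk3b, Tbx18, Pln, Myl2, Gsn, Col1a2, Col5a2, Col5a3 and the unmeasured relatives of the family fall outside that rule. So do the genes shared between lists and Slc4a1. All of these were named after their values were seen. Members and lists were chosen with earlier results of these data known. The gene that carries the deletion is not reported here. Depth is not defined for arrays, and precision is limited by 4 arrays per genotype. No batch was analysed here.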

Additional observations from a re-analysis of the deposited data

Results flagged for a closer look

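Dixon's test at its 95% critical value looks, among the 4 mice of a genotype, for an extreme lying far from all its fellows relative to their spread. Over 18 groups of detected member probes it marked 1, where chance would give about 1 in 20 groups, or 0.9. It was a dimmer Ogn probe (ILMN_2740622), at 6.05 in heterozygote 1, while the other heterozygotes lay between 5.85 and 5.88, a gap of 0.853 of the range. The brightest Ogn probe did not share this, since heterozygote 1 was at 10.35 there and heterozygote 4 at 10.30.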

How the results depend on the processing

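No member passed with limma under any of 11 other settings or with any 1 mouse left out, and 0 of all genes did either. Genes at an unadjusted p under 0.05 ran from 222 with the replicate block to 1042 with array weights, and were 797 of 17850 without the detection filter, against 339. Each mouse number holds 1 mouse of each genotype, so the replicate block cannot change a difference, and it changed no call. Deviations of same-numbered mice from their genotype means correlated at -0.46 to 0.21. The labels do not say that the numbers pair the mice. These correlations cannot decide it, since paired mice need not correlate in such deviations. Without wild type 4 the smallest adjusted p over all genes was 0.201, and without heterozygote 2 it was 0.210. With array weights Dcn turned to -0.035 and Ogn to -0.10, and the cause was not tested. With 1 mouse left out, Dcn ran from -0.072 to 0.069, Bgn from 0.062 to 0.33, Lum from -0.061 to 0.17, Prelp from -0.056 to 0.22, Ogn from -0.12 to 0.11 and Podn from -0.018 to 0.25. With heterozygote 3 and wild type 2 both removed, chosen after seeing the data, Dcn was -0.076, Lum -0.076, Ogn -0.034, Bgn 0.21, Prelp 0.052 and Podn 0.19, and 1 gene passed over all (the anion exchanger gene Slc4a1, no member, at 1.40, adjusted p = 0.0285, limma).

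The number of member pairs with a correlation past an adjusted p of 0.05 (exact permutation) moved with the normalization. It was 0 of 15 with quantiles, 4 with cyclic loess, 4 with median scaling, 3 with the authors' normalized values and 2 of 10 when only probes detected on all 8 arrays were used, where fewer pairs are adjusted for. Bgn with Prelp and Bgn with Ogn passed in each of these 4 settings. In the other settings no pair passed: without normexp, with an offset of 50, with the mean of detected probes, as deviations from genotype means and without the detection filter. With the mean of detected probes Bgn had r = 0.71 with Ogn and 0.85 with Prelp (adjusted p = 0.241 and 0.107, exact permutation). With 1 mouse left out the number ran from 0 to 2, and the median correlation from 0.26 without heterozygote 3 to 0.66 without heterozygote 2. With both mice removed it was 0, with a median of 0.19 and 10 pairs positive. The cause of these shifts was not tested. How many of all pairs of genes would pass in each setting was not counted either, so these numbers have no background beside them. Signal over background limits Podn, Fmod, Omd and Aspn.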
